A study of Mus musculus with 4 samples.

Results

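Runx1, Runx3, Cbfb, Ets1, Fli1, Bcl11b, Tcf3, Tcf12, Id2 and Id3 are 10 transcription factor genes of the T lineage, out of 49943 genes of the RefSeq table on the chromosomes measured. Every cytosine position listed within a gene's bounds or the 5 kb on either side was taken, and only those read at least 5 times by every one of the 4 libraries were used. That left 1715 positions, 120 windows of 1 kb with at least 5 kept positions, and a pooled level for each gene with its flanks, called the locus level. The libraries are whole-genome bisulfite libraries of spleen CD4+ T cells from NOD mice, the strain known for spontaneous diabetes, with 1 library in each group. PBS Teff and PBS Treg came from mice given PBS, OX40L-JAG1 Teff and OX40L-JAG1 Treg from mice given the OX40L and Jagged-1 proteins. Dosing began at 6 weeks of age and was weekly for 3 weeks, and the cells were sorted 1 week later, at 10 weeks. Teff were sorted as CD4+CD25- cells and Treg as CD4+CD25hi cells, so the gates name CD4 and CD25 but not Foxp3, and the CD25- gate holds naive and memory cells alike. The number of animals behind a library is not in the labels.

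Runx proteins bind DNA together with Cbfb, a partner that does not touch DNA itself. In T cells they silence or activate the Cd4 gene by stage, Runx3 is known for the CD8 T cell and Th1 programmes, and Runx1 works with Foxp3 in Treg. Ets1 and Fli1 are Ets family activators that often bind beside Runx, and Bcl11b is a zinc finger factor needed for commitment to the T lineage. Tcf3 and Tcf12 encode the E proteins E2A and HEB, and Id2 and Id3 encode inhibitors that pair with E proteins and keep them off DNA. Each Runx gene has a distal and a proximal start, and methylated cytosines at CpG pairs of a start usually go with low use of that start.

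The stretches of 250 bases before 4 starts are shown because these starts were read in all 4 libraries and differ in how many CpG pairs they hold. They come from RefSeq (GRCm38.p6, the assembly of mm10), run 5′ to 3′ along transcription and carry CpG pairs in capitals. The Runx3 distal stretch holds 8 CpG pairs at chr4:135120395-135120644 on the plus strand. The Runx1 distal stretch holds 2 pairs at chr16:92826075-92826324, the Runx1 proximal stretch 27 pairs at chr16:92697330-92697579 and the Bcl11b stretch 9 pairs at chr12:108003415-108003664, all on the minus strand.
Runx3 distal: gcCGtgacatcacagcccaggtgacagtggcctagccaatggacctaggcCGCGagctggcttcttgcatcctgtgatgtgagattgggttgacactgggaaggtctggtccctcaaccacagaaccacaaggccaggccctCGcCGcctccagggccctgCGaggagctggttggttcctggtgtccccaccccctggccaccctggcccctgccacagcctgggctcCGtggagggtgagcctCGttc
Runx1 distal: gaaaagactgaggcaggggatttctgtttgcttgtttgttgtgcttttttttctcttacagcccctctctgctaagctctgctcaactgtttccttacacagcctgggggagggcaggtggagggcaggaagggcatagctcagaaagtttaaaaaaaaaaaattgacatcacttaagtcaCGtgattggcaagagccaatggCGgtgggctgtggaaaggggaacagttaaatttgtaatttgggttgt
Runx1 proximal: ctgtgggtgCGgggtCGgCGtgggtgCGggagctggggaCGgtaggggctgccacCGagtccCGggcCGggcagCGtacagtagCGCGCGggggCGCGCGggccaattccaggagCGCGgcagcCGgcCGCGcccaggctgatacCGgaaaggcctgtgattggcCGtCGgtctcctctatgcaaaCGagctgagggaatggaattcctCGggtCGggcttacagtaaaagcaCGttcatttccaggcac
Bcl11b: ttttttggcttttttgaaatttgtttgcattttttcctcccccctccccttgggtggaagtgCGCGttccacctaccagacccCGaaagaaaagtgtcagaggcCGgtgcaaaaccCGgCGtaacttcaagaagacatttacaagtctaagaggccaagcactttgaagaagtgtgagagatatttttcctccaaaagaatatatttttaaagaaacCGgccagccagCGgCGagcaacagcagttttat
Of the 10 genes, 8 have an entry in that table. Tcf12 has 3 starts there, and the others have 1 or 2. A Runx motif (TGTGGT or TGCGGT, either strand) stands at 2 places in the Runx3 distal stretch with 50 bases after the start, and 18.6% of all 32851 stretches of that length hold one. No other stretch of the 8 genes holds that motif. An Ets motif (GGAAGT or GGAAGC, either strand), held by 37% of all, is in those of Bcl11b, Cbfb, Id3, Tcf3 and the first start of Tcf12. An E-box (CAGCTG or CAGGTG, either strand), held by 27.7% of all, is in those of Id2, the distal starts of Runx1 and Runx3, and the first start of Tcf12. A match is a string of letters, not a measured binding site.

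Over the genome, 208402911 reads were listed for Teff and 131555634 for Treg of PBS mice, and 159291553 for Teff and 103584075 for Treg of OX40L-JAG1 mice, summed over positions, with a median of 9 to 14 reads at a kept position. Pooled levels were 85.2%, 84.9%, 81.6% and 82.2% in that order. A window of Foxp3, the defining gene of Treg, stood at 94.6% and 94.3% in the Teff libraries and at 41% and 46.5% in the Treg libraries. It separated them most among the Foxp3 windows. In the order of the pooled levels, the one at chromosome X, 7578001, stood at 87.4%, 60.5%, 72.5% and 44.3%. The one at 7598001 stood at 96.7%, 87.9%, 92.7% and 88.2%. Of a list of 6 Treg markers, 3 held a window called lower in Treg in both pairs below, and 0 one called higher. Of the T cell marker genes, Cd3e, Cd4 and the rest of a list of 7 had locus levels with medians of 50.5% to 57.4%. Among markers of other cells, 68 windows of B cell genes and 14 of CD8 T and NK cell genes held 0 calls in the comparisons made below. Of 6 myeloid markers 1, Spi1, was called higher in Treg in both pairs, and of the T cell markers 1 was called higher in Treg of PBS mice and 1 in Teff after treatment. The shares of all windows called stand with those comparisons and ran from 0.0194% to 0.469% in a single comparison and direction. Counts of 0 in so few windows therefore do not set these marker genes apart.

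The median of the 10 genes lay below that of protein-coding genes in each library. Their median locus level was 65% in Teff and 67.4% in Treg of PBS mice, and 68.9% in Teff and 70% in Treg of OX40L-JAG1 mice, where the medians of 20663 protein-coding genes were 85.9%, 85.5%, 82.4% and 82.9%. The levels spread widely among the genes. In that order, kept for all values that follow, Id2 stood lowest at 19.8%, 20%, 23.3% and 28.2%. Id3 came next at 37%, 42.9%, 42.6% and 50.8%. Bcl11b followed at 44.4%, 46.3%, 46% and 45.8%. These 3 genes therefore had less than 51% of their reads methylated in each library.

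Fli1 stood at 62.4%, 58.3%, 61% and 61.4%, and Runx3 at 62.6%, 70.2%, 70.1% and 72.1%. Ets1 stood at 67.4%, 64.5%, 69.9% and 69%. Runx1 stood at 68.7%, 71.2%, 67.9% and 71%. These 4 genes lay close together, and their order changed from library to library. Tcf3 stood at 73.8%, 73.9%, 72.2% and 74.8%. Tcf12 at 89.5% to 90.6% and Cbfb at 88.8% to 92.3% were the most methylated, above the protein-coding median in each library. With 95% Wilson intervals, which cover counting error only, Id2 ran from 15.9% to 24.4% in PBS Teff and from 21.6% to 35.9% in OX40L-JAG1 Treg, so its libraries overlap.

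**Figure D1:**
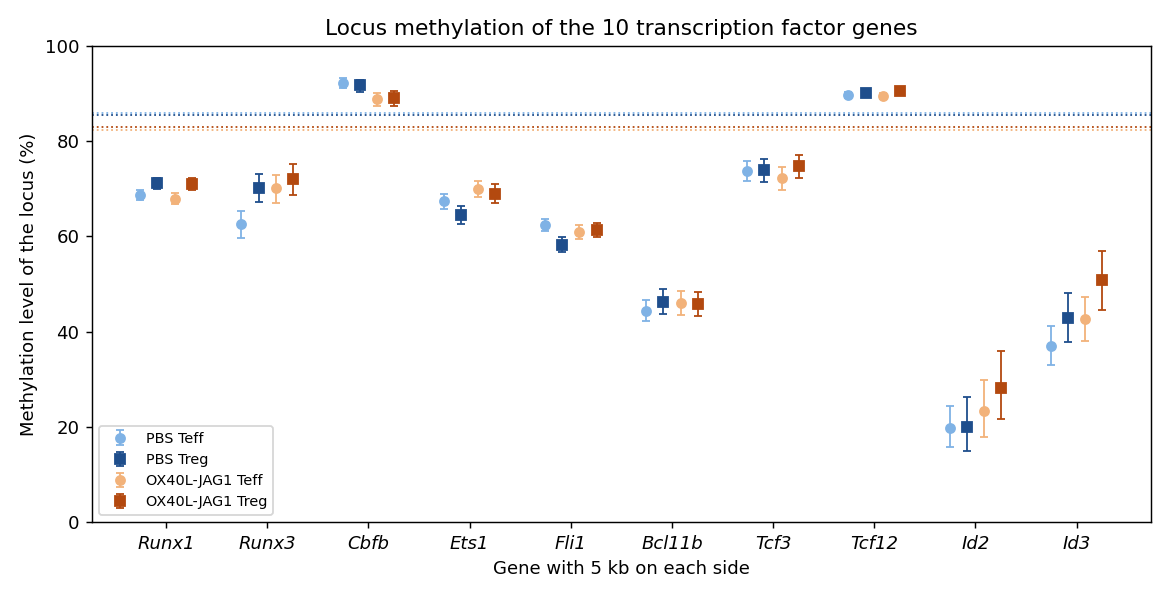
Locus methylation level (percent of reads methylated, y axis) of the 10 genes with 5 kb on each side (x axis) in the 4 libraries. Points are libraries, bars are 95% Wilson intervals and dotted lines are the medians of 20663 protein-coding genes; only Tcf12 and Cbfb lie above the lines, and Id2 is lowest.

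After treatment the 10 loci moved in both directions. OX40L-JAG1 Teff was lower than PBS Teff at 5 of the 10 loci, against 83.4% of protein-coding genes, and OX40L-JAG1 Treg lower than PBS Treg at 3 of 10, against 76.9%. With equal weight of positions the counts were 6 and 4 of 10, and the 10 loci were not tested against the rest. The loci had a median difference of 0.634 points in Teff and 1.41 points in Treg, where protein-coding genes had -2.74 and -1.94. Cbfb was lower in both, by -3.52 points in Teff (95% Newcombe interval -5.35 to -1.74) and -2.66 points in Treg (-4.71 to -0.653). Ets1 was higher in both, by 2.53 points (0.186 to 4.86) and 4.48 points (1.72 to 7.23). The Ets1 differences were -0.0933 and 0.279 points when each position had equal weight. The Fli1 difference in Teff turned from -1.45 to 1.26 points in the same way. Runx3 had the widest locus difference between the PBS libraries, 7.61 points higher in Treg (3.47 to 11.7), and 2.05 points (-2.4 to 6.43) between the OX40L-JAG1 libraries. With equal weight of positions these were 6.42 and 6.51 points. A locus level averages cells and molecules, so a change in each cell and a change in the mix of cells cannot be told apart, here or in any window.

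Windows were sorted by level before they were compared. Of the 120 windows, 77 (64.2%) were at 80% or more in all 4 libraries and 10 (8.33%) below 20% in all 4; over the genome the shares were 65.1% and 1.15%. The 10 low windows were in Bcl11b (3), Runx1 (2), Fli1 (2), Id2 (2) and Ets1 (1). The Runx1 proximal start lay in one of them, the window at chromosome 16, 92697001, at 1.13%, 1.29%, 0.686% and 4.23%. The window after it, 92696001, stood at 4.1%, 0.837%, 1.02% and 2.73%. The Bcl11b start at chromosome 12, 108003001, stood at 0%, 1.67%, 0% and 0%, and windows deeper in Bcl11b at 107996001 and 107991001 at 3.9% to 10.2%. So the starts of Runx1 (proximal) and Bcl11b had little methylation in every library. At the Runx1 start OX40L-JAG1 Treg was 3.54 points above OX40L-JAG1 Teff (adjusted p 0.00721 by Fisher's exact test), less than the 20 points required for a call below.

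Fli1 had its low windows at 32541001 and 32542001 of chromosome 9, near the end of its bounds with the higher coordinate, at 0.261% to 2.06%. The Ets1 window at 32703001 held 0.565%, 0%, 2.02% and 0%. Id2 had low windows in the gene, at chromosome 12, 25094001 (6.77%, 11.1%, 5.62% and 19.7%), and at 25099001 beside it (4.1%, 3.57%, 2.13% and 0%). The Runx1 distal start was read at 2 or 3 positions per library on 10 to 15 reads, and none was methylated. The proximal start of Runx3, the start of Id3 and the later 2 starts of Tcf12 had no listed position within the 300 bases from 250 before to 50 after.

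**Figure D2:**
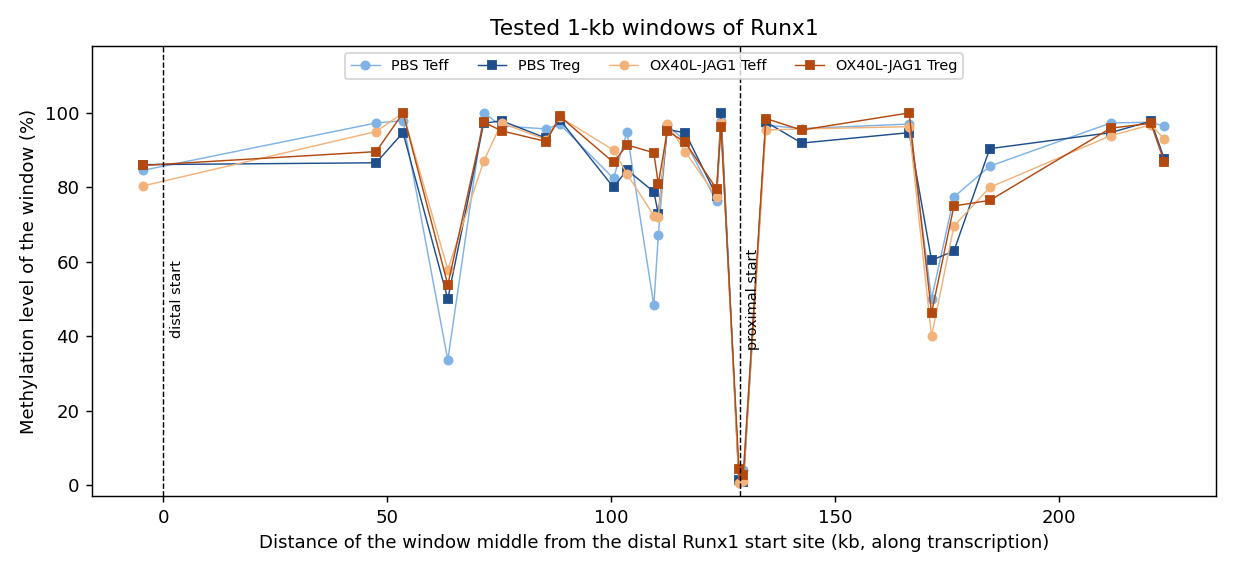
Methylation level (percent, y axis) of the 27 tested 1-kb windows of Runx1 against distance from the distal start along transcription (kb, x axis), with the 4 libraries as points joined by lines; dashed lines mark the starts. All libraries fall together to near 0 at the proximal start, and PBS Teff is lowest in the windows at about 64 and 110 kb.

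Treg and Teff were then compared window by window, within PBS and within OX40L-JAG1, pairs that share no library. A window was called where Fisher's exact test of its reads, two-sided and adjusted over all 314517 windows of the genome, gave p under 0.05 and the levels differed by at least 20 points. These tests compare 2 libraries, not 2 kinds of cell, and sum reads over neighbouring positions that may lie on 1 molecule. Between the PBS libraries 4 of 120 windows were higher in Treg and 0 lower, where 0.115% of all windows were higher and 0.165% lower. Between the OX40L-JAG1 libraries 1 was higher and 0 lower, beside 0.0547% and 0.0588%. A single window, at Runx3, was higher in Treg in both pairs, as were 0.0223% of all windows, and 0 were lower in both, beside 0.0337%. With all read counts divided by 3, none of the 10 calls in the 120 windows, treatment included, was made. With 120 windows, counts of 0 do not set these genes apart from shares this small. The median window difference was -0.0112 points between the PBS libraries and 0.995 between the OX40L-JAG1 libraries, and over all windows -0.158 and 0.435.

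**Figure D3:**
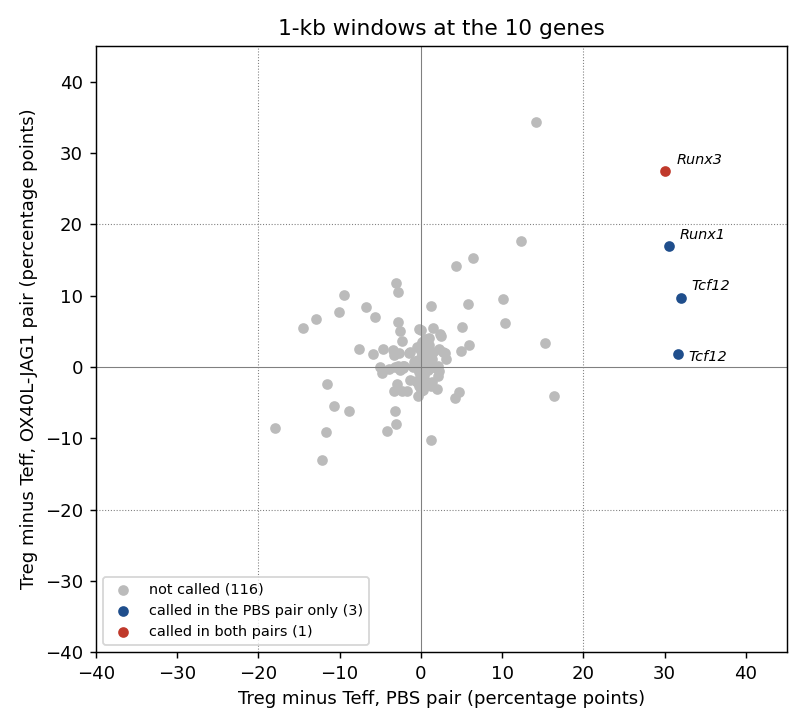
Treg minus Teff level of the 120 windows between the PBS libraries (x axis) and the OX40L-JAG1 pair (y axis), in percentage points; each point is a window and dotted lines mark 20 points. The Runx3 window is called in both pairs, 1 Runx1 and 2 Tcf12 windows between the PBS libraries, and the other 116 in neither.

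Runx3 was more methylated in both Treg libraries just after its distal start. The gene (RefSeq gene 12399) lies at chromosome 4, 135120645 to 135177990, and the window at 135120001 to 135121000 spans the start. Its level was 14.8% in Teff and 44.9% in Treg of PBS mice, and 23.1% in Teff and 50.6% in Treg of OX40L-JAG1 mice, on 230, 185, 130 and 172 reads over 9 positions. Both Treg libraries lay above both Teff libraries, and their Wilson intervals, 37.9% to 52.1% and 43.2% to 58%, did not meet those of Teff, 10.8% to 19.9% and 16.7% to 31%. The difference was 30.1 points between the PBS libraries (21.4 to 38.3, adjusted p 2.79e-08 by Fisher's exact test) and 27.5 points between the OX40L-JAG1 libraries (16.6 to 37.3, adjusted p 0.00207 by Fisher's exact test). OX40L-JAG1 minus PBS was 8.29 points in Teff and 5.72 points in Treg, with adjusted p of 0.347 and 0.872 by Fisher's exact test.

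The difference lay after the start, and the start itself was low in every library. The 4 positions from 20 bases before the start to 60 after it were at 0% to 25%, on 5 to 19 reads each. At 213 bases after the start the levels were 39.4%, 76.5%, 47.4% and 73.3%, and at 223 bases 20%, 59.4%, 31.6% and 69%. At 229 bases they were 16.2%, 53.1%, 26.3% and 60.7%, on 19 to 37 reads. The 5 positions from 178 to 231 bases were each higher in Treg in both pairs, and none was called by itself. Being close enough to share reads, they need not be separate observations. These positions lie past the end of the printed distal stretch. The next window, at 135121001, stood at 35.8%, 50%, 36% and 70.4%, higher in Treg by 14.2 and 34.4 points and called in neither pair. Of a list of 7 CD8 T and NK cell markers, cells in which Runx3 is known to be active, 6 had a locus level. Their levels ran from 33.2% to 90.2%, 39.4% to 89.5%, 36.6% to 87.7% and 33.5% to 92.3%, in the order of libraries above; their part in the Runx3 difference was not tested.

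**Figure D4:**
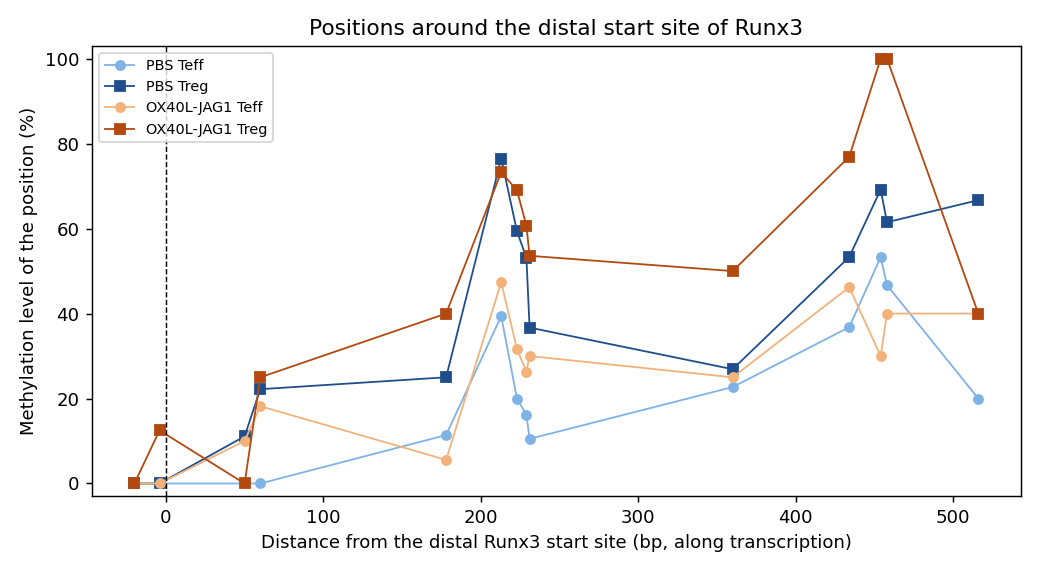
Methylation level (percent, y axis) of single positions read at least 5 times in all 4 libraries, against distance from the Runx3 distal start along transcription (bp, x axis); points are positions, colours are libraries and the dashed line is the start. Both Treg libraries lie above both Teff libraries from 178 to 458 bp after the start, narrowly at 360 bp. At 516 bp OX40L-JAG1 Treg and OX40L-JAG1 Teff are both at 40%, and all libraries are low at the start itself.

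Runx1 held a window that was higher in Treg between the PBS libraries. The gene (RefSeq gene 12394) lies at chromosome 16, 92601466 to 92826074, and the middle of the window at 92716001 lies 19171 bases before the proximal start. The levels were 48.3%, 78.8%, 72.4% and 89.3% on 174, 146, 163 and 140 reads. PBS Teff was far below the other 3, and all 6 positions were higher in Treg in both pairs. The difference was 30.5 points between the PBS libraries (20.1 to 39.9, adjusted p 1.65e-05 by Fisher's exact test) and 16.9 points between the OX40L-JAG1 libraries (8.05 to 25.3, adjusted p 0.102). Between the Teff libraries it was 24.1 points higher after OX40L-JAG1 (adjusted p 0.00155 by Fisher's exact test), and between the Treg libraries 10.5 points (adjusted p 0.36). The Teff comparison shares PBS Teff, and the Treg comparison PBS Treg, with the PBS pair, so they are not separate evidence. With window borders moved by 500 bases the PBS pair was called again (31.2 points) and the Teff comparison was not (20.8 points, adjusted p 0.0601 by Fisher's exact test).

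Tcf12, which encodes the E protein HEB, held 2 such windows. The gene (RefSeq gene 21406) lies at chromosome 9, 71844252 to 72111893. The window at 72106001, 4701 bases after the second start, stood at 52.1%, 83.8%, 82.8% and 84.6% on 140, 80, 58 and 52 reads. Its difference was 31.6 points between the PBS libraries (19 to 42.1, adjusted p 0.00109 by Fisher's exact test) and 1.86 points between the OX40L-JAG1 libraries (-12.5 to 15.7). The window at 71976001 stood at 34.2%, 66.2%, 56.9% and 66.7% on 114, 80, 72 and 60 reads. It differed by 32 points between the PBS libraries (17.8 to 44.4, adjusted p 0.00442 by Fisher's exact test) and by 9.72 points between the OX40L-JAG1 libraries (-6.88 to 25.4). In both windows PBS Teff stood apart and the other 3 libraries overlapped. With borders moved by 500 bases the first was called again (34.7 points) and the second was not (19.8 points, adjusted p 0.0818 by Fisher's exact test). The other 32 Tcf12 windows were not called, and 28 of all 34 were at 80% or more in every library.

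OX40L-JAG1 was compared with PBS within Teff and within Treg, pairs that share no library with each other. The labels do not say whether Teff and Treg of a treatment came from the same mice. With 1 library in each group, treatment cannot be told apart from a difference between the mice or between preparations. In Teff 4 of 120 windows were higher after treatment and 0 lower, where 0.0881% of all windows were higher and 0.469% lower. In Treg 1 was higher and 0 lower, beside 0.0194% and 0.0811%. A single window, at Ets1, was higher in both, as were 0.00572% of all windows, and 0 were lower in both, beside 0.0162%. The median difference of the 120 windows was -0.784 points in Teff and 0.142 in Treg, where the medians of all windows were -2.82 and -2.14.

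Ets1, an activator that T cells express at rest, was more methylated in both OX40L-JAG1 libraries at a site inside the gene. The gene (RefSeq gene 23871) lies at chromosome 9, 32636241 to 32757820, and the window at 32668001 to 32669000 stood at 14%, 11%, 37.6% and 35.2% on 351, 281, 327 and 199 reads. The PBS libraries were alike and so were the OX40L-JAG1 libraries, with no overlap between the intervals, which ran up to 18% in PBS and from 28.9% in OX40L-JAG1. Teff differed by 23.7 points (17.2 to 29.9, adjusted p 3.48e-09 by Fisher's exact test) and Treg by 24.1 points (16.6 to 31.7, adjusted p 4.88e-06). Treg minus Teff was -2.93 points under PBS and -2.44 under OX40L-JAG1, with an adjusted p of 1 in each.

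All 6 positions of the Ets1 window were higher after treatment in both kinds of cell. They run from 32668082 to 32668230, close enough to share reads, so they need not be separate observations. Position 32668109 stood at 19.2%, 16.2%, 53.3% and 46.8%, and position 32668128 at 16.9%, 16.9%, 56% and 46.5%. They were called as single positions in Teff, at adjusted p of 0.037 and 0.00518 by Fisher's exact test over 4795059 positions. The first 4 positions were read 67 to 81 times in PBS Teff and 37 to 47 times in OX40L-JAG1 Treg, against library medians of 14 and 9. Whether reads from another copy of the sequence were placed there was not tested. The neighbouring window at 32667001 stood at 70.3%, 70.8%, 77.7% and 76.6% and was not called. With window borders moved by 500 bases the low positions shared a window with methylated ones, and neither cell type gave a call (14.5 points in Teff and 13.9 in Treg).

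The other treatment calls were in Teff alone and were those of Runx1 at 92716001 and Tcf12 at 72106001, given above, and of Runx1 at 92762001. The Tcf12 window was higher after treatment by 30.6 points in Teff (adjusted p 0.00575 by Fisher's exact test) and by 0.865 points in Treg. The Runx1 window at 92762001 lies 63574 bases after the distal start, between the starts. It stood at 33.6%, 50%, 57.9% and 53.8% on 220, 158, 197 and 143 reads over 15 positions. It differed by 24.2 points in Teff (14.7 to 33.2, adjusted p 0.000271 by Fisher's exact test) and by 3.85 points in Treg (-7.38 to 14.9). With borders moved by 500 bases the Teff difference was 18.3 points, under the 20 points of a call. Whether Teff and Treg responded unequally was tested as an interaction, with a Wald test. No window of the 120 was called, beside 0.0108% of all windows, and the 6 windows described here had adjusted p from 0.856 to 0.989. In 5 of the 6, all but Ets1, PBS Teff was the lowest library. Most calls that picked these windows were against PBS Teff, so the choice of windows favours that pattern.

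**Figure D5:**
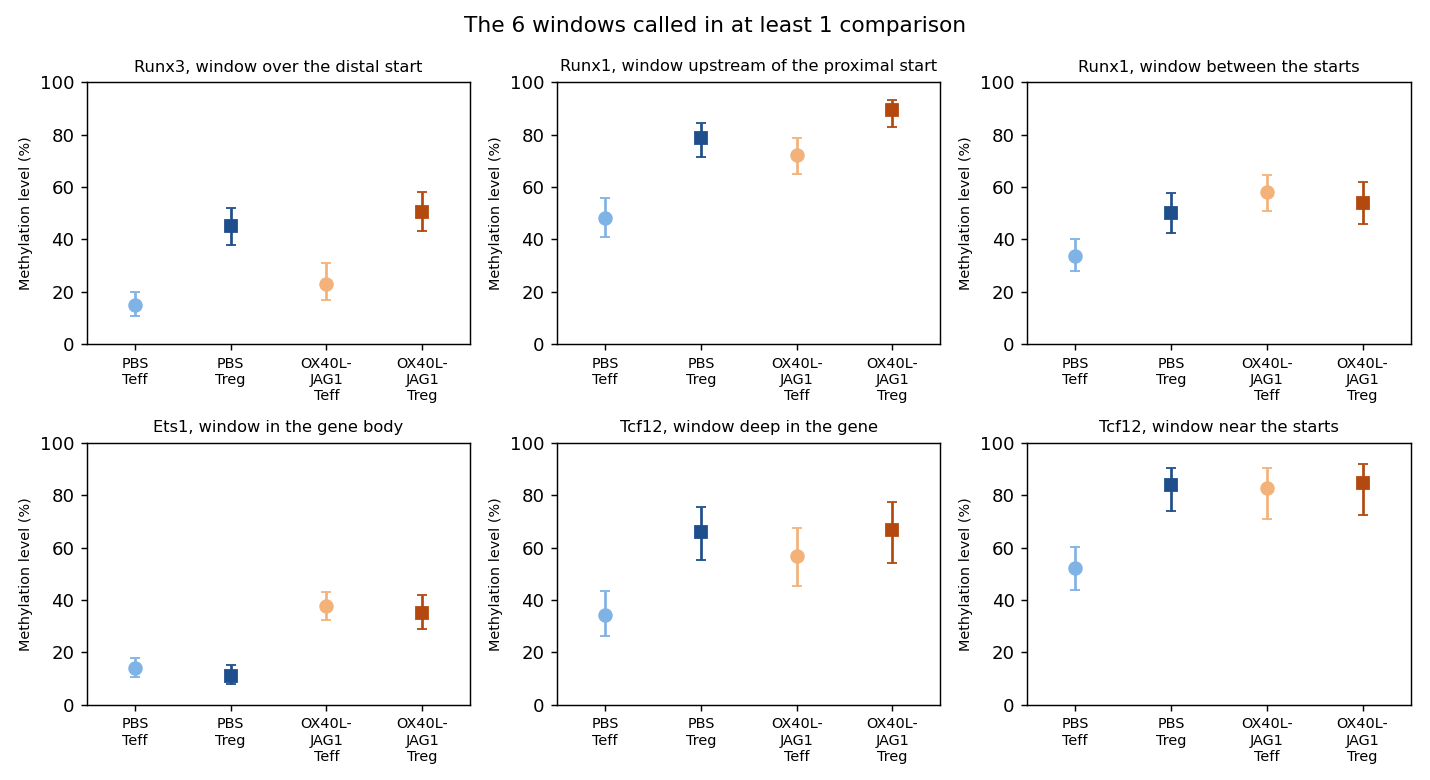
Methylation level (percent, y axis) in the 4 libraries (x axis) of the 6 windows called in at least 1 comparison; points are libraries and bars 95% Wilson intervals. Runx3 separates by cell type and Ets1 by treatment, and in the others PBS Teff is lowest.

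The other 6 genes had no called window in the main comparisons. Cbfb, the partner of the Runx proteins (RefSeq gene 12400, chromosome 8, 105170674 to 105217989), had 16 windows, with Treg minus Teff from -12.2 to 12.3 points between the PBS libraries and from -13.1 to 17.6 points between the OX40L-JAG1 libraries. Its widest window in both, 105185001, stood at 85.1%, 97.4%, 78.6% and 96.2%. Bcl11b (RefSeq gene 58208, chromosome 12, 107910403 to 108004145) had 9 windows. The widest, at 107970001, stood at 61%, 43%, 44.3% and 35.8%, which is -18 points between the PBS libraries and -8.52 between the OX40L-JAG1 libraries. PBS Teff was highest there. Fli1 (RefSeq gene 14247, chromosome 9, 32422204 to 32543432) had its widest differences at 32532001, 15.3 points between the PBS libraries, and at 32417001, 6.33 points between the OX40L-JAG1 libraries.

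Tcf3, which encodes E2A (RefSeq gene 21423, chromosome 10, 80409541 to 80433976), had 2 windows, and the one at 80409001 stood at 96.1%, 97.3%, 95.2% and 85%. Id2 (RefSeq gene 15902, chromosome 12, 25093799 to 25096092) had 3 windows. The one in the gene, at 25094001, was higher in Treg by 4.34 and 14.1 points. Id3 (RefSeq gene 15903, chromosome 4, 136143822 to 136145392) had 2 windows, both in its flanks. The one at 136140001 stood at 16.1%, 22.5%, 19% and 34.3%, higher in Treg by 6.38 and 15.2 points. In these 2 windows OX40L-JAG1 Treg was the highest of the 4 libraries, and neither difference was called. It was not the highest in the other windows of these genes, at 67.5% in Id2 25088001, 0% in Id2 25099001 and 72.5% in Id3 136149001.

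Single positions gave few calls. Of 1715 positions, 1 was lower and 0 higher in the PBS Treg and Teff pair, where 0.00943% and 0.00751% of all positions were. Between the OX40L-JAG1 libraries 0 were called either way, beside 0.00148% and 0.00073%. After treatment 2 were higher and 0 lower in Teff, both in Ets1, beside 0.00302% and 0.0255%. In Treg 0 were called, beside 4.17e-05% and 0.000313%. An unadjusted p under 0.05 by Fisher's exact test was found at 43 positions (2.51%) between the PBS libraries and 25 (1.46%) between the OX40L-JAG1 libraries, where 1.32% and 1.2% of all positions had one. After treatment it was found at 45 (2.62%) in Teff and 24 (1.4%) in Treg, where 3.23% and 1.74% had one. The position lower in PBS Treg was Tcf12 72039490, at 74.1%, 21.6%, 54.8% and 13.6% on 81, 51, 62 and 44 reads. It differed by -52.5 points between the PBS libraries (adjusted p 7.45e-05 by Fisher's exact test) and by -41.2 points between the OX40L-JAG1 libraries (adjusted p 0.344). The opposite strand of the same CpG pair, 72039489, was listed in PBS Teff alone, with 6 reads at 0%.

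Thinly read stretches were opened by keeping positions read in the 2 compared libraries, whatever the other 2 held. This gave 340 windows between the PBS libraries, 209 between the OX40L-JAG1 libraries, 435 in Teff and 179 in Treg. Between the PBS libraries 2 were lower and 5 higher in Treg, beside 0.151% and 0.0812% of all such windows, and between the OX40L-JAG1 libraries 0 and 1, beside 0.0465% and 0.0387%. After treatment 2 were lower and 6 higher in Teff, beside 0.361% and 0.0566%, and 0 and 1 in Treg, beside 0.0602% and 0.0147%. Bcl11b at 107970001 was now called, -21.3 points between the PBS libraries (adjusted p 0.0186 by Fisher's exact test) and -20.9 points in Teff after treatment (adjusted p 0.00366), both against PBS Teff. Runx1 at 92694001, 2829 bases after the proximal start, was higher in PBS Treg by 50.9 points on 33 and 40 reads. That gap shrank when each PBS library kept all of its listed positions: 87.3% for Treg (63 reads) against 69% for Teff (113 reads). The size of this Runx1 difference therefore depends on which positions are kept. Cbfb at 105172001 was lower after treatment in Teff by -21.2 points. Among the main windows this Cbfb window was lower after treatment in both cell types and called in neither. There Treg differed by -21 points (-35.3 to -5.36), Teff by -20 points (-32.8 to -6.55). Over each library's own positions this Cbfb window stood at 57.7%, 48.4%, 38.1% and 39.4%, in the order of libraries above. The size of its Treg difference therefore depends on which positions are kept. Runx3 at 135128001 was higher after treatment in Teff by 21.8 points. Over each library's own positions that Runx3 window stood at 56.4% in Teff of PBS mice and at 61.2% in those of treated mice, so its difference depends on which positions are kept. These windows, and the next pair, were chosen after their values were seen.

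A minimum of 3 kept positions in all 4 libraries gave 266 windows. Those higher in Treg were 4 between the PBS libraries, beside 0.0684% of all such windows, and 1 between the OX40L-JAG1 libraries, beside 0.0237%. Those lower in Treg were 1 between the PBS libraries, beside 0.103% of all such windows, and 2 between the OX40L-JAG1 libraries, beside 0.0292%. Of them 1 was lower in both, as were 0.0168% of all such windows. It lies in Tcf12 at 72039001 and holds the called position. The levels were 81.2%, 52.1%, 76% and 47.4% on 207, 119, 146 and 97 reads over 4 positions, with differences of -29.1 points (adjusted p 9.29e-05 by Fisher's exact test) and -28.6 points (adjusted p 0.0173). Both Treg libraries lay below both Teff libraries. Without the called position the levels were 85.7%, 75%, 91.7% and 75.5%, and the differences -10.7 and -16.2 points. That minimum also called Fli1 at 32513001, at 12.5%, 51.5%, 80.8% and 13% on 40, 33, 26 and 23 reads over 4 positions. OX40L-JAG1 Teff was the highest there, 68.3 points above PBS Teff (adjusted p 4.44e-05 by Fisher's exact test). Treg minus Teff was -67.7 points between the OX40L-JAG1 libraries. In Teff, 6 of the 266 windows were called higher after treatment, beside 0.0484% of all such windows. Besides Fli1, they lie in Ets1, Runx1, Runx3 and Tcf12. Over each library's own positions the Fli1 levels were 40.7%, 51.2%, 85.4% and 13%, on 81, 43, 41 and 23 reads. The PBS Teff level there therefore depends on which positions are kept. The Wald test of the interaction called this Fli1 window (adjusted p 0.0029), as it did 0.0044% of all such windows.

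Relatives of the 10 genes were counted by list. Calls made in 1 comparison alone were not counted. Of all windows of the genome, 0.0223% were higher and 0.0337% lower in Treg in both pairs. After treatment 0.00572% were higher and 0.0162% lower in both, so counts of 0 do not set a list apart. The 7 other Runx family and CBF partner genes held 134 windows. Of these, 0 were called alike in both Treg and Teff pairs, or in both treatment pairs. The same held for the 80 windows of 6 other E protein, Id and bHLH genes and for the 9 of Bcl11a. Of 13 other Ets genes, with 156 windows, Spi1, which encodes PU.1, held 2 windows called higher in Treg under both treatments. At chromosome 2, 91088001, it stood at 54%, 90.1%, 57.6% and 87.1%, and at 91089001 at 52.4%, 83.3%, 47.7% and 79%. Of 20 other T lineage genes, with 167 windows, Tcf7, Lef1 and Satb1 held at least 1 called higher in Treg under PBS and OX40L-JAG1. Of these 3 genes, Tcf7, which encodes TCF-1, was the only one with a window also called higher in both treatment comparisons, at chromosome 11, 52271001, with 6.99%, 41.7%, 29.7% and 67.9% on 229, 156, 158 and 112 reads. The Satb1 window at chromosome 17, 51822001, was higher after treatment by 22 and 21.7 points and was called in neither. Among the 10 genes, the Runx3 window separated the libraries by cell type and the Ets1 window by treatment. Runx1 at 92716001 and Tcf12 at 72106001 were called between the PBS libraries and between the Teff libraries, both against PBS Teff.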

How the data were processed

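Cytosine methylation was measured in 4 libraries. The submitters' processing notes name Trimmomatic, Bismark and mm10; for versions, settings and duplicate removal, nothing is given in the sources used here. The authors' table gives, per the file headers, the count of reads and the count of methylated reads at 25374149 positions, with strands on separate lines. The authors' deposited level is headed as a percentage but is a fraction from 0 to 1 equal to the ratio of those counts. Nonzero counts start at 5, so totals are not sequencing depth.

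Kept positions had at least 5 reads in every library, outside the mitochondrial genome: 4795059, or 18.9%. Reads were summed in fixed 1-kb windows with at least 5 kept positions, with a median of 115 reads in Teff and 85 in Treg of PBS mice, and 92 in Teff and 71 in Treg of OX40L-JAG1 mice. Windows and positions were tested with the two-sided Fisher's exact test with Benjamini-Hochberg adjustment genome-wide, and the interaction with a Wald test of a logistic model after adding 0.5 to each cell. Intervals are 95% Wilson (levels) and Newcombe (differences) and cover counting error only. Python 3.11.15, numpy 2.4.6, scipy 1.17.1, pandas 2.3.3 and numba 0.67.0 were used. Simulated reads were drawn for 314517 windows in each comparison. Of windows changed by 50 points, 86% to 100% were recovered, by 30 points 34% to 80% and by 20 points 12% to 36%. The simulated reads were independent, with no spread between libraries beyond counting. Only windows of high level were lowered and only those of low level raised. These shares therefore do not cover reads that share a molecule or spread between animals.

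Gene bounds are those of RefSeq for GRCm38.p6, without strand or exons, so exon, intron and UTR were not told apart; strand came from the table of starts. Of 89 listed positions in the members' start stretches, 88 fell on a CpG of the C57BL/6J sequence, so positions are 1-based; the other lies at the end of a stretch, where the pair cannot be read. The genes and lists were chosen with earlier results of these data known. Called windows are described; for a gene with none, the window with the widest difference in each Treg and Teff pair. Relatives are named where called alike in both pairs. Alternatives were a minimum of 10 reads, 3 positions, shifted windows, read counts divided by 3, positions read in the compared pair, other difference thresholds, centring, no flanks and equal weight of positions; windows of 3 or 4 positions were also taken without the called position and over each library's own positions, chosen after seeing the data.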

Additional observations from a re-analysis of the deposited data

Results flagged for a closer look

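A stretch of Fli1 at chromosome 9, not tested in the main windows since it holds 4 kept positions, gave unequal differences between the libraries. It was chosen after its values were seen, and with 1 library in each group the test compares libraries, not cell types. With at least 3 kept positions per window, Treg minus Teff was 39 points under PBS and -67.7 points under OX40L-JAG1 at 32513001. The difference of these differences was -107 points, with an adjusted p of 0.0029 by the Wald test, on 23 to 40 reads per library; 0.0044% of 750314 windows had such a call. Over each library's own positions Treg minus Teff was 10.4 points under PBS and -72.3 points under OX40L-JAG1, and PBS Teff stood at 40.7% in place of 12.5%. With windows shifted by 500 bases the stretch fell in a window of 5 positions at 32513501, at 13.7% in Teff and 48.9% in Treg of PBS mice and 81.1% in Teff and 17.2% in Treg of OX40L-JAG1 mice, on 51, 45, 37 and 29 reads. The difference of differences was -99 points there (adjusted p 0.000158 by the Wald test, beside 0.00954% of windows called). Its 4 positions from 32513919 to 32513993 were read 5 to 12 times each and lie close enough to share reads, so few molecules may stand behind the values.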

How the results depend on the processing

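No paired analysis was possible because each group has 1 library, and no library could be left out. Of the counts of called windows, 69 of 90 values under the alternatives equalled the main count or stayed within 1.5 times of it. Many of these were counts of 0 that stayed 0, so that share says little about how stable the calls are. No called window of the main comparisons changed sign. With a minimum of 10 reads, which left 24 windows and neither Tcf12 window nor Runx1 at 92762001, those higher were 2 in the PBS pair and 2 in Teff after treatment. With 3 positions, windows lower in Treg were 1 under PBS, 2 under OX40L-JAG1, where 1 was higher, and 1 under both, so in the OX40L-JAG1 pair lower calls came to outnumber higher ones. With shifted windows, 1 was lower in the OX40L-JAG1 pair (Fli1), beside 0.0576% of all shifted windows. In Teff after treatment 1 was lower (Bcl11b), beside 0.44%. There 2 were higher (Tcf12 and a Fli1 window not tested in the main set), beside 0.09%. In Treg after treatment 0 were higher, beside 0.0137%. The calls of Runx1 (both) and Ets1 after treatment and of Tcf12 at 71976001 were lost. Among the alternatives, shares of all windows were taken for shifted windows, 3 positions and positions of the compared pair only. With positions of the compared pair, 2 were lower in the PBS pair and 2 in Teff after treatment. At 10 points, 1 was lower in Teff after treatment (Tcf12, 72022001, -18.8 points). At 30 points, those higher were 0 in the OX40L-JAG1 pair, 1 in Teff after treatment, 0 in Treg after treatment and 0 in both Treg and Teff pairs. With read counts divided by 3, to allow for reads that are not independent, those higher were 0 in each of the 4 comparisons and 0 in both Treg and Teff pairs, and all 10 calls of the 6 windows were lost at unchanged differences. Centring and leaving out flanks changed no count of calls. Of 152 locus differences under alternatives, 20 moved beyond their counting interval, 11 of them with equal weight of positions; the Runx3 difference in Teff after treatment, 7.47 points, became 0.49, and -0.409 with positions of the compared pair. Where no cause is given here, the cause was not tested. A median of 9 to 14 reads at a position limits what single positions can show.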
